A study of Mus musculus with 35 samples.

Results

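The data were read for 10 genes of the Wnt pathway, chosen by symbol: the secreted antagonists Sfrp1, Sfrp2, Dkk1, Dkk2, Dkk3 and Wif1, and the β-catenin target or partner genes Axin2, Nkd1, Lef1 and Tcf7. All 10 had a row among the 20261 genes of the table. Axin2 and Tcf7 were clearly expressed and the other 8 were near silent, with 13 to 97 reads each over all 20 libraries. Axin2 rose from a mean of 40.6 normalized reads at 24 h to 323 at 7 d in vehicle cells and from 54.8 to 382 in inhibitor cells. Tcf7 stayed between 153 and 254 normalized reads in every group mean. Neither gene passed the test between inhibitor and vehicle at any time.

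The cells were NMuMG, an epithelial line from the mouse mammary gland that undergoes an epithelial-mesenchymal transition (EMT) under transforming growth factor β (TGF-β). The labels give strain E9, genotype WT and tissue mammary gland, and the replicates were 2 samples of this line per group. The 10 groups were vehicle (DMSO) or JNKi cells at 5 times (24, 48, 72 and 96 h, and 7 d), 20 libraries in all. JNKi stands, by the series title, for inhibition of c-Jun N-terminal kinase signalling, and no compound is named. One treatment protocol, attached to every sample, describes TGF-β at 2 ng/ml renewed with the medium every 2 days for the time course. Whether the DMSO and JNKi cells received TGF-β throughout is not stated beyond titles that place them in an EMT time course. These groups hold no untreated 0 h sample, so each change with time below is relative to 24 h of the same arm. A separate TGF-β time course of 15 samples was not analysed here.

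Values are normalized reads per gene: reads divided by a scaling factor of the library. Depth ran from 9.5 M reads (JNKi 7 d replicate 1) to 48.6 M reads. Both libraries of each group stood apart beyond the noise of sampling reads (chi-square of 8.79 to 29.2 per degree of freedom), so all 20 were kept. Nothing in the labels ties replicates to separate cultures, and the p values then reflect the spread between samples that may be technical replicates. Of the markers that check the label, Cdh1 fell from 11140 ± 771 to 4073 ± 462 (SD, n = 2) between DMSO 24 h and 7 d, and Fn1 rose from 48180 ± 6974 to 195100 ± 33760. Vim, a mesenchymal marker, fell instead, from 80570 ± 1034 to 54160 ± 6776 in DMSO (log2 -0.58, limma adjusted p = 0.000172), and by 0.58 in JNKi (limma adjusted p = 0.000175). Epcam was listed at 0 in nearly every library before 7 d and at 8.1 to 12.6 at 7 d. The summed level of 6 epithelial markers was 329400 to 347300 in DMSO at 24 h and 131700 to 167000 at 7 d, against 99180 to 106200 in JNKi at 7 d. Most of each sum was Krt8 and Krt18, with means of 64560 and 75020 at DMSO 7 d and 47290 and 45160 at JNKi 7 d. Cldn4 was also lower in JNKi at 7 d (462.5 against 673.2). Cdh1 (4181 against 4073), Krt19 (5603 against 5002) and Epcam (11.85 against 9.95) were not. The summed level of 5 myoepithelial markers was 191 to 300 in DMSO at 24 h and 6502 to 10910 at 7 d, and 6458 to 7065 in JNKi at 7 d. Nearly all of the 7 d sum was Acta2, a contractile actin gene, with a mean of 18.5 at DMSO 24 h and 8608 at DMSO 7 d. Krt5 went the other way, from 201 to 25.1 in DMSO, and Krt14, Trp63 and Oxtr had means of 55.8 or lower at DMSO 7 d. At JNKi 7 d the means were 211.7 for Krt14, 58.85 for Krt5, 13.6 for Oxtr and 9.4 for Trp63. Sums of 5 fibroblast markers were 594 to 637 in DMSO at 24 h and 1528 to 1683 at 7 d, mostly Col1a1, with means of 581 and 1564. Sums of 6 endothelial markers were 469 to 544 and 744 to 832 in the same groups. Sums of 7 leukocyte markers were 2080 to 2371 and 1797 to 1880. Sums of 4 adipocyte markers never exceeded 27.7. Fewer cells of a type and less RNA per cell cannot be told apart in such bulk samples. The part of these shifts in the results below was not tested.

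Wnt ligands bind Frizzled receptors with the co-receptors Lrp5 and Lrp6. In the canonical branch this stops a complex built on Axin from marking β-catenin for destruction, and β-catenin then acts in the nucleus with the DNA-binding factors Tcf7, Lef1, Tcf7l1 and Tcf7l2. Secreted Frizzled-related proteins (Sfrp) and Wif1 bind Wnt ligands outside the cell, and Dickkopf proteins such as Dkk1 and Dkk2 bind Lrp5 and Lrp6. Axin2 and Nkd1 are induced by the pathway in many tissues and damp it in turn. In the mammary gland, Wnt signalling is known for roles in branching and in basal cells.

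Promoter windows are shown for the expressed pair Axin2 and Tcf7 and for Dkk1, the sole member window with a TCF/LEF match. Each window is 300 bases of RefSeq sequence on GRCm38.p6, 250 before to 50 after a start site, 5′ to 3′ on the gene's strand. The Tcf7 window reads from an ATG before the start site to its end without a stop codon. Part of it may thus be coding sequence of the gene rather than promoter. Capitals mark a match to CTTTGAT or CTTTGTT on either strand. Axin2 lies at chr11:108920099-108920398 (plus strand), Tcf7 at chr11:52282965-52283264 (minus strand, the first of its start sites in the table) and Dkk1 at chr19:30549447-30549746 (minus strand).
Axin2: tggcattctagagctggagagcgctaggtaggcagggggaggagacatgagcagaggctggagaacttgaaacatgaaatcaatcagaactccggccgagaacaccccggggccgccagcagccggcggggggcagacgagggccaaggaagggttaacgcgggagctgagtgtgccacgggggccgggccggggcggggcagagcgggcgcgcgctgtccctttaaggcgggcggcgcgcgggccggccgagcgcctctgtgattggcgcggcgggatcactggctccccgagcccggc
Tcf7: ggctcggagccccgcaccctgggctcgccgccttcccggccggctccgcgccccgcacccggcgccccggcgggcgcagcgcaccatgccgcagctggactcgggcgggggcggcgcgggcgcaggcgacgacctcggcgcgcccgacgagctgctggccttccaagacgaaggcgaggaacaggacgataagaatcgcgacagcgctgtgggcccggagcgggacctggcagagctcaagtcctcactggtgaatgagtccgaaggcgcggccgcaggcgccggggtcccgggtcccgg
Dkk1: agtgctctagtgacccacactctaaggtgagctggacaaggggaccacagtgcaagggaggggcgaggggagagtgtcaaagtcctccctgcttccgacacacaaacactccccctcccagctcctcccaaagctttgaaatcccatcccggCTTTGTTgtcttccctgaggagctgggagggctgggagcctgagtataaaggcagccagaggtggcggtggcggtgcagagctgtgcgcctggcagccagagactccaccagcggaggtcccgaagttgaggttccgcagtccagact

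The Dkk1 match began at base -98 from the start site. Of the 10 genes, 8 had a promoter in the table, in 12 windows. One window held a TCF/LEF match, against 9.33% of the 32851 promoters searched. None held TGANTCA, the AP-1 letters bound by Jun dimers, against 7.81% of all promoters. These letters are thus not in the Axin2 and Tcf7 windows shown, which were rich in G and C (70.0% and 76.3%, against 60.7% for Dkk1). The matches describe the sequence only.

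Axin2, the feedback scaffold of the β-catenin destruction complex, lies on chromosome 11 with 14 merged exons in GENCODE M21 (GRCm38). In DMSO its 2 libraries held 40.8 and 40.4 normalized reads (24 h), 121.4 and 135.3 (48 h), and 246.9 and 259.4 (72 h). The later pairs were 225.0 and 161.4 (96 h) and 294.5 and 350.8 (7 d). All 8 later DMSO libraries lay above both 24 h libraries, and both 7 d libraries lay above all others of that arm. In limma on log2(normalized reads + 1), the rise over 24 h was 1.63 on the log2 scale at 48 h (SE 0.19, adjusted p = 1.34e-05). It was 2.61 at 72 h (adjusted p = 5.67e-08), 2.20 at 96 h (adjusted p = 6.06e-08) and 2.95 at 7 d (adjusted p = 4.71e-09), all by limma with the same SE. Of the 4 members tested, Axin2 alone passed as higher at 48, 72 and 96 h, where 14.7%, 24.0% and 32.7% of all 13896 genes tested did.

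In JNKi cells, Axin2 held 47.2 and 62.3 normalized reads (24 h), 122.8 and 144.3 (48 h), and 225.6 and 280.8 (72 h). Next came 194.5 and 178.3 (96 h) and 410.4 and 354.2 (7 d). Again no later library overlapped the 24 h pair, and the 7 d libraries were the highest. The rise over 24 h was 1.28 on the log2 scale at 48 h (SE 0.19, limma adjusted p = 0.000157), 2.19 at 72 h (adjusted p = 4.76e-07), 1.76 at 96 h (adjusted p = 1e-06) and 2.79 at 7 d (adjusted p = 1.49e-08). In that arm 10.9%, 20.6%, 30.8% and 31.7% of all genes tested passed as higher at these times. Each Axin2 rise over 24 h in both arms passed under every alternative run.

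**Figure D1:**
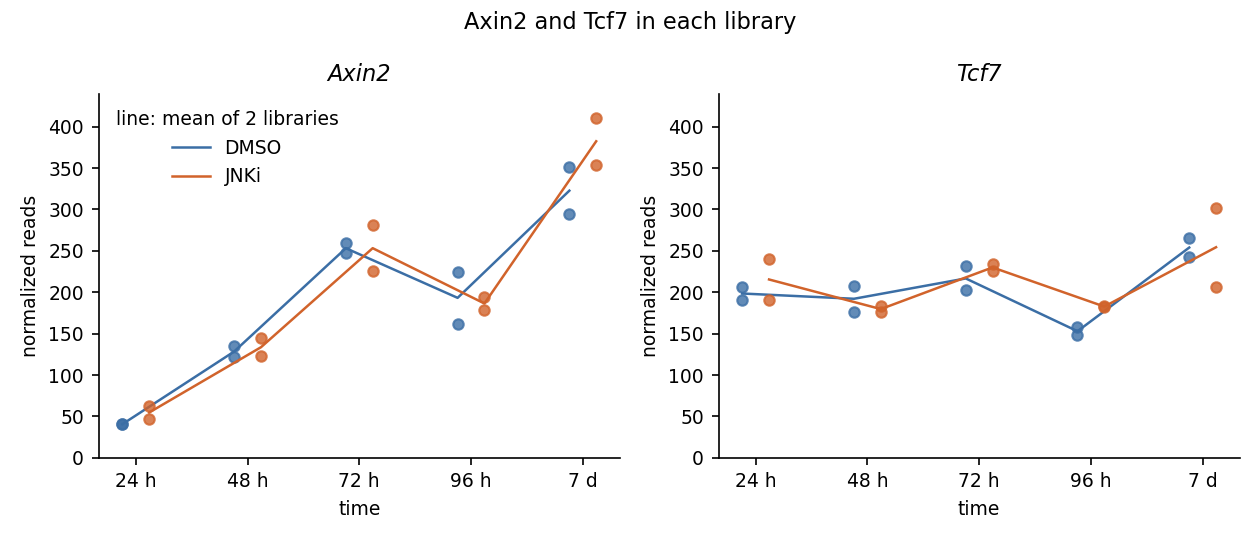
Normalized reads of Axin2 (left) and Tcf7 (right) in each of the 20 libraries (points) at 5 times, evenly spaced on the axis, with lines through the mean of 2 libraries for DMSO (blue) and JNKi (orange). Axin2 climbed from 40.4 to 62.3 at 24 h to 294.5 to 410.4 at 7 d, while Tcf7 lay between 148.0 and 302.2 throughout.

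The mean of Axin2 at 96 h was below that at 72 h in both arms, by a log2 difference of -0.41 in DMSO (limma adjusted p = 0.109) and -0.43 in JNKi (limma adjusted p = 0.101), neither of which passed. The DMSO fall did pass without DMSO 96 h replicate 1 (-0.65, limma adjusted p = 0.0379), and the JNKi fall under edgeR with no filter (-0.45, adjusted p = 0.0459). From 96 h to 7 d it rose by 1.03 in JNKi (SE 0.19, limma adjusted p = 0.00061). The DMSO rise over that interval was 0.75 (SE 0.19, limma adjusted p = 0.00619). The DMSO call rested on single libraries, with a log2 difference of 0.51 (limma adjusted p = 0.105) without replicate 2 at 96 h and 0.63 (adjusted p = 0.0766) without replicate 2 at 7 d. Higher calls for 7 d over 96 h made up 21.0% of genes tested in DMSO and 23.2% in JNKi. Gm11670 overlaps exons of Axin2 on the opposite strand, and whether counting used strand is not given in the sources used here.

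Per length, Axin2 went from 0.248 ± 0.00912 RPKM (reads per kilobase of exon and per M reads, SD, n = 2) at DMSO 24 h to 2.11 ± 0.279 at DMSO 7 d. It went from 0.336 ± 0.057 at JNKi 24 h to 2.67 ± 0.227 at JNKi 7 d. Its constitutive paralog Axin1, named after its values were seen, had a mean of 30.1 RPKM over the 20 libraries and a range of 27.0 to 33.2. Even at its highest, Axin2 was thus far below Axin1 on the RPKM scale.

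Tcf7, the DNA-binding partner of β-catenin also called TCF-1, lies on chromosome 11 with 12 merged exons. In DMSO its libraries held 206.6 and 190.3 normalized reads (24 h), 176.2 and 208.0 (48 h), and 231.1 and 202.2 (72 h). They then held 148.0 and 157.8 (96 h), and 265.9 and 242.0 (7 d). The 96 h pair was the lowest of that arm and the 7 d pair the highest. In JNKi cells Tcf7 held 191.2 and 239.6 (24 h), 176.4 and 182.9 (48 h), and 234.6 and 225.3 (72 h). Its last pairs were 183.1 and 182.3 (96 h) and 302.2 and 206.5 (7 d), the latter overlapping the 24 h and 72 h values.

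No time differed from 24 h for Tcf7 past the limma threshold in either arm. The nearest were DMSO 96 h, with a log2 difference of -0.37 (95% interval -0.74 to -0.01, adjusted p = 0.0693), and DMSO 7 d, with 0.35 (-0.01 to 0.72, adjusted p = 0.0873), both by limma. The first passed when either JNKi 7 d library was left out (adjusted p = 0.0408), which changes only the estimate of the spread. The DMSO 7 d difference passed after upper quartile rescaling (0.42, limma adjusted p = 0.0406). The JNKi 7 d difference of 0.22 passed without JNKi 7 d replicate 2 (0.50, limma adjusted p = 0.0372). Between 96 h and 7 d, Tcf7 rose by 0.73 in DMSO (SE 0.17, limma adjusted p = 0.00403). In JNKi the difference was 0.45 (limma adjusted p = 0.0483) and was lost in 17 of the 20 fits with 1 library left out. Without JNKi 7 d replicate 1 it was 0.18 (limma adjusted p = 0.509). From 72 h to 96 h Tcf7 fell by 0.50 in DMSO (limma adjusted p = 0.0326), which no longer passed without DMSO 72 h replicate 1 (adjusted p = 0.198) or either 96 h library (adjusted p = 0.135 and 0.0819). The JNKi difference of -0.33 did not pass (limma adjusted p = 0.167). Lower calls for 96 h against 72 h made up 20.8% of genes tested in DMSO and 17.3% in JNKi.

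The inhibitor left no called difference in any of the 4 members tested. Over 5 times this made 20 tests against DMSO, of which limma, edgeR and DESeq2 each called 0, and 1 had an unadjusted limma p under the threshold of 0.05. That was Axin2 at 24 h, with a log2 difference, JNKi minus DMSO, of 0.41 (95% interval 0.00 to 0.81, unadjusted p = 0.048, limma adjusted p = 1). Both JNKi libraries at 24 h (47.2 and 62.3) lay above both DMSO libraries. The share of all genes ordered in this way at 24 h was not counted, so no difference is read from that order. At that time 0.0% of all genes tested passed in either direction, and the same held at 48 h. At 72 h and 96 h 0.072% and 0.0072% passed, and at 7 d 10.2% passed by limma, 11.4% by edgeR and 11.5% by DESeq2.

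At 48, 72 and 96 h the Axin2 difference was 0.05, -0.01 and -0.03 on the log2 scale, and the 2 arms overlapped at each of these times. At 7 d it was 0.25 (95% interval -0.16 to 0.65, limma adjusted p = 0.44), with the JNKi libraries at 354.2 and 410.4 and the DMSO libraries at 294.5 and 350.8. Averaged over the 5 times, it was 0.13 (SE 0.09, 95% interval -0.05 to 0.31, limma adjusted p = 0.425). The mean Tcf7 difference was 0.07 (SE 0.08, 95% interval -0.10 to 0.23, limma adjusted p = 0.685), and at single times it lay between -0.09 and 0.26. For a mean difference 2.45% of all genes tested passed as higher in JNKi and 2.32% as lower.

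**Figure D2:**
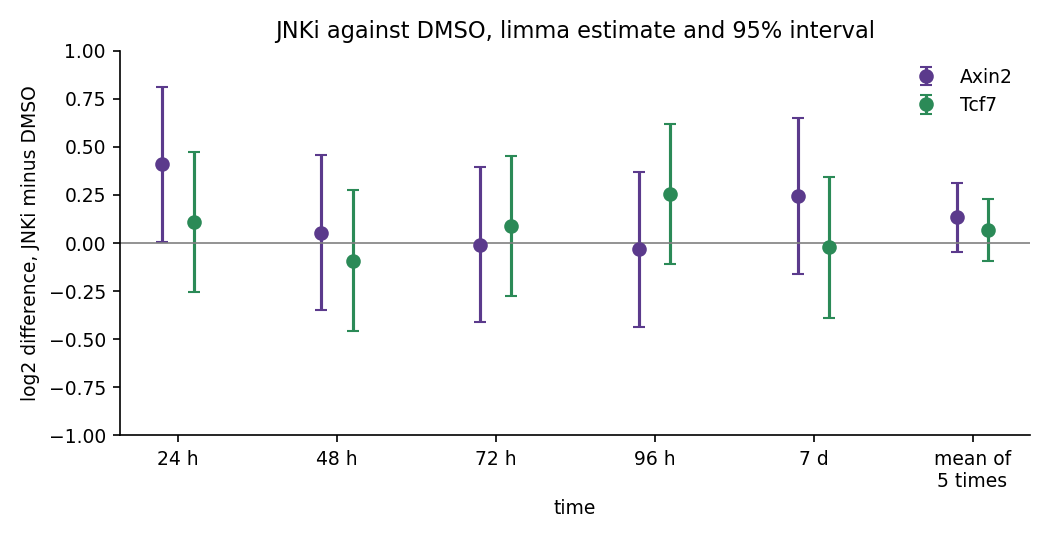
Log2 difference, JNKi minus DMSO, of Axin2 (purple) and Tcf7 (green) at each time and as the mean of 5 times, with limma's 95% interval (bars). The interval of Axin2 at 24 h starts at 0.00, and the intervals of all later differences include 0.

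The change of the inhibitor effect was tested as well. The Axin2 effect at 7 d minus that at 24 h was -0.16 (SE 0.27, limma adjusted p = 0.818), and the JNKi change from 24 h to 96 h minus that of DMSO was -0.44 (SE 0.27, limma adjusted p = 0.999). For Tcf7 these were -0.13 (limma adjusted p = 0.842) and 0.15 (limma adjusted p = 0.999). Of the 8 interaction tests of members, limma, edgeR and DESeq2 each called 0, and 1 had an unadjusted limma p under 0.05. That was Dkk2 at 7 d against 24 h, with a log2 difference of 1.98 (SE 0.89, unadjusted p = 0.0396, limma adjusted p = 0.272). Among all genes 2.1% passed the first interaction and 0.0072% the second.

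The other 8 genes gave few reads. Over the 20 libraries there were 28 reads of Sfrp1, 18 of Sfrp2, 39 of Dkk1, 97 of Dkk2, 62 of Dkk3, 37 of Wif1, 13 of Lef1 and 23 of Nkd1. They had 0 reads in 8, 14, 4, 1, 3, 9, 12 and 11 libraries in that order. A count of 0 over all libraries would allow up to 0.00511 RPM (reads per M reads of the library, here 3 reads of the total). Intervals and such floors cover counting error only. Testing needed 1 group with a mean of 10 or more, so Sfrp1, Sfrp2, Dkk1, Dkk3, Lef1 and Nkd1 were not tested.

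Dkk2, a Dickkopf ligand of Lrp5 and Lrp6, was the most abundant of the 8 by reads. In DMSO it held 2.8 and 1.4 normalized reads (24 h), 1.2 and 5.7 (48 h), 4.4 and 1.8 (72 h), 4.7 and 1.8 (96 h), and 5.0 and 6.8 (7 d). In JNKi it held 0.0 and 1.6 (24 h), 3.5 and 2.5 (48 h), 4.9 and 7.2 (72 h), 3.2 and 4.8 (96 h), and 11.1 and 16.1 (7 d). The JNKi 7 d pair was the highest of all 20 libraries. These are 27 reads at JNKi 7 d against 1 at JNKi 24 h, a ratio of 26.1 after scaling to depth (exact 95% counting interval 4.31 to 1070).

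Dkk2 passed the filter only through JNKi 7 d, so a difference there was built into its being tested. Tested with no filter by edgeR's quasi-likelihood test on the reads, JNKi 7 d against 24 h gave an adjusted p of 0.000423. The limma fit with the filter, and so with that built-in difference, gave a log2 change of 3.16 (adjusted p = 0.000453). The limma calls at JNKi 72 h (2.11, adjusted p = 0.0137) and 96 h (1.61, adjusted p = 0.0348) were lost without JNKi 24 h replicate 1, at 1.42 (adjusted p = 0.133) and 0.92 (adjusted p = 0.288). The 72 h call was lost under DESeq2 (adjusted p = 0.118) and edgeR with no filter (adjusted p = 0.054), and the 96 h call under edgeR (adjusted p = 0.0775), DESeq2 (adjusted p = 0.183) and a pseudocount of 8 (adjusted p = 0.109). The first was lost also without JNKi 72 h replicate 2 (limma adjusted p = 0.0939) and the second without either JNKi 96 h library (limma adjusted p = 0.0626 and 0.16). In DMSO the 7 d change of 1.18 did not pass (limma adjusted p = 0.114). JNKi minus DMSO at 7 d was 1.07 (95% interval -0.25 to 2.40, limma adjusted p = 0.29), which did not pass. The 2 arms did not overlap there, and the share of all genes apart in this way was not counted.

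Wif1, a secreted protein that binds Wnt ligands, held 3.4 and 6.8 normalized reads at DMSO 7 d and 13.9 and 6.3 at JNKi 7 d. The remaining DMSO libraries lay between 0.0 and 1.4 and the remaining JNKi libraries between 0.0 and 3.2. Like Dkk2, Wif1 passed the filter only through JNKi 7 d (mean 10.1), so a high value there was built into its being tested. The limma rise in DMSO at 7 d over 24 h was 1.92 (adjusted p = 0.016) and rested on 12 reads against 1. It was lost under edgeR with no filter (adjusted p = 0.1), under DESeq2 (adjusted p = 0.242), and without DMSO 24 h replicate 2 (limma adjusted p = 0.171) or 7 d replicate 2 (limma adjusted p = 0.11). In JNKi the 7 d change of 1.51 did not pass (limma adjusted p = 0.0517). That limma difference passed without either DMSO 24 h library or without JNKi 7 d replicate 2 (adjusted p = 0.0358 to 0.047), with no filter (0.0195), with a pseudocount of 8 (0.00832), after upper quartile rescaling (0.0401), without the trend (0.0159) and with only the 2 groups (0.0449). It did not pass under edgeR (adjusted p = 0.107) or DESeq2 (adjusted p = 0.354). The limma calls of lower Wif1 at JNKi 48 h and 72 h rested on 4 reads at 24 h against 0, and were lost in 12 and 4 of 19 fits with 1 library left out. All 4 of the latter left out a JNKi 24 h or 72 h library. Genes lower at these times made up 11.2% and 19.1% of those tested. At 7 d against 96 h Wif1 passed as higher in DMSO (2.17, limma adjusted p = 0.0141) and JNKi (2.19, limma adjusted p = 0.0121), and DESeq2 called neither (adjusted p = 0.145 and 0.177). Tested with no filter by edgeR on the reads, both passed (adjusted p = 0.0238 and 0.0398). The DMSO call was lost without DMSO 96 h replicate 2 or 7 d replicate 2, and the JNKi call without JNKi 96 h replicate 2 (limma adjusted p = 0.115, 0.123 and 0.104).

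Sfrp2, which like Sfrp1 carries a Frizzled-like domain, had 0 reads in all 4 libraries at 24 h. It held 3.4 and 2.0 normalized reads at DMSO 7 d and 8.3 and 4.9 at JNKi 7 d, the latter at least 3.23-fold higher by the floor of 3 reads per group. No fold is given for DMSO, where 7 d rests on 5 reads. Dkk3, a divergent Dickkopf relative, had 1 read at 24 h and 14 at 7 d in DMSO, a ratio of 10.1 (counting interval 1.54 to 428). In JNKi it had 0 reads at 24 h and 16 at 7 d, at least 5.16-fold higher by the same floor. Dkk1, the best known Dickkopf inhibitor, showed no such shift, with 2 and 4 reads in DMSO and 3 and 3 in JNKi. Sfrp1 had 1 and 6 reads in each arm, and 6 of its 6 reads at 7 d came from replicate 2 in both arms.

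The 2 remaining target genes were also near zero. Lef1, the DNA-binding partner often induced with Axin2, had 0 reads at DMSO 24 h and at DMSO 7 d, the latter allowing up to 0.0521 RPM (3 reads). It held 2.8 and 4.2 normalized reads at JNKi 7 d, from 7 reads. With no filter, limma called Lef1 higher in JNKi than in DMSO at 7 d (log2 difference 2.15, adjusted p = 0.00936), and edgeR with no filter did not. Among all genes 5.51% passed as higher there by limma with no filter. Nkd1, a Dishevelled-binding feedback inhibitor, had 0 reads at JNKi 24 h and held 5.5 and 6.3 normalized reads at JNKi 7 d, from 11 reads. That is at least 3.55-fold higher by the same floor. With no filter, edgeR's adjusted p for JNKi 7 d against 24 h was 0.0192 for Nkd1, 0.00237 for Dkk3 and 0.0263 for Sfrp2, where 23.4% of all 20261 genes passed as higher.

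Reads of these 8 genes moved with reads of genes from an unrelated silent family. Summed over the 8, the level was 0.216 RPM at DMSO 24 h and 0.91 at DMSO 7 d, and 0.23 at JNKi 24 h and 1.91 at JNKi 7 d. These are 4.21 and 8.31 times the 24 h sums. Over 524 olfactory and vomeronasal receptor genes with a mean under 5, which serve in sensory neurons, the sum went from 1.42 to 7.82 RPM in DMSO and from 1.47 to 15.6 RPM in JNKi. These are 5.52 and 10.6 times. The part of this wider shift in the rise of the 8 genes was not tested. Its part in differences between the arms at 7 d was not tested either, for Lef1 or for low genes such as Sfrp5 and Rspo1 below. The 7 d libraries included the shallowest, JNKi replicate 1, with 16 reads of the 8 genes against 78 in replicate 2, and the pair held 1.69 and 2.13 RPM.

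**Figure D3:**
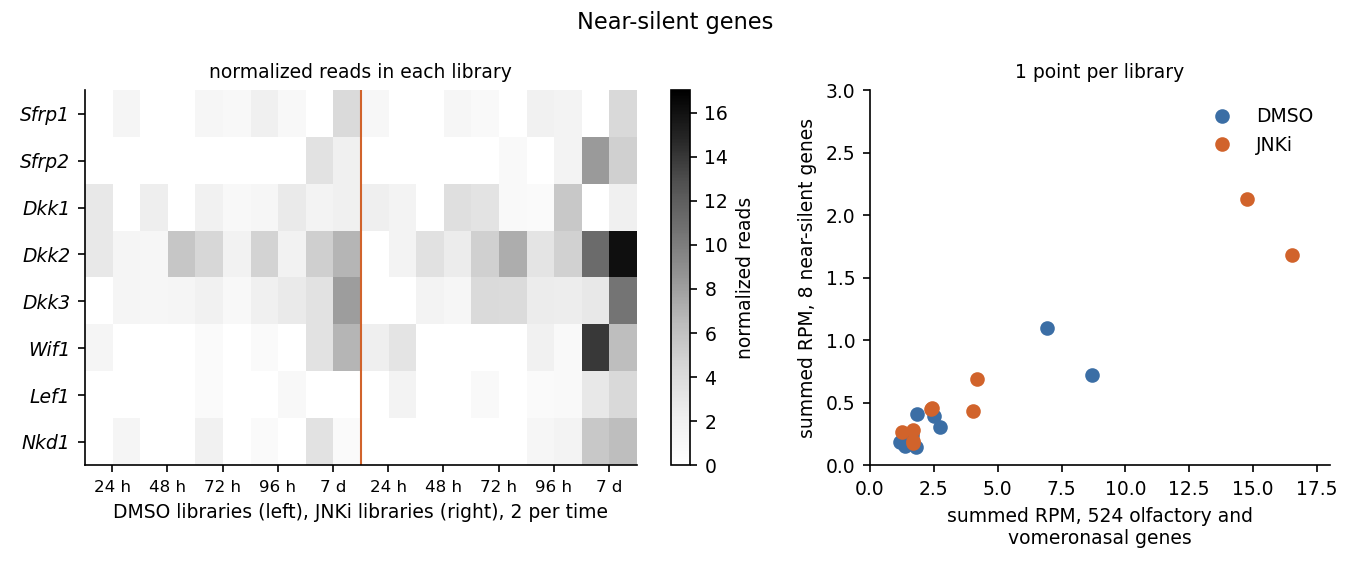
Left, normalized reads of the 8 near-silent genes in each library (grey scale from 0), with DMSO libraries left of the line and JNKi libraries right. Right, their summed RPM against the summed RPM of 524 olfactory and vomeronasal genes, 1 point per library. The 4 libraries of 7 d stand highest on both axes, JNKi above DMSO.

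Compared per length, the Tcf/Lef family was uneven. Tcf7 had a mean of 2.75 RPKM over the 20 libraries (range 1.97 to 4.37) and Tcf7l2, named after its values were seen, a mean of 2.54 RPKM (range 2.00 to 3.34). Lef1 had 0.00257 RPKM and Tcf7l1, also named after its values were seen, 0.0173 RPKM. The ranges of Tcf7 and Tcf7l2 overlapped, and both lay above every value of Lef1 and Tcf7l1. Tcf7l2 fell by 0.41 on the log2 scale at DMSO 7 d against 24 h (limma adjusted p = 0.0317), and its JNKi difference of -0.20 did not pass (limma adjusted p = 0.293). Gene Gm43352 overlaps exons of Lef1, and Gm26771 those of Sfrp2, on the opposite strand.

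**Figure D4:**
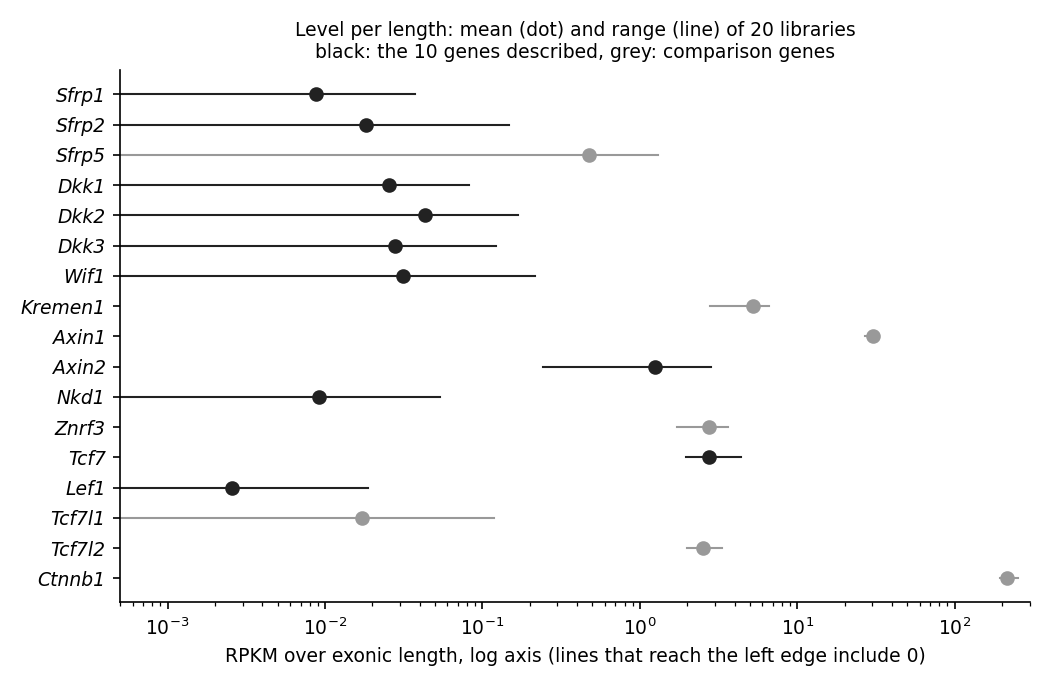
Level per exonic length in RPKM on a log axis: the mean of 20 libraries (dot) and their range (line) for the 10 genes (black) and 7 comparison genes of the pathway (grey). Tcf7 and Tcf7l2 lie near 2.75 and 2.54 RPKM, Axin2 spans 0.242 to 2.83, and the 8 near-silent genes have means under 0.05.

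Genes whose group means were most like those of Axin2 over the 10 groups were Bdnf, a neurotrophin (Pearson r 0.995), the long noncoding RNA Snhg10 (0.988) and Cngb1, a cyclic nucleotide-gated channel subunit (0.985). Bdnf means were 92.0, 210, 350, 256 and 428 normalized reads from 24 h to 7 d in DMSO. In JNKi they were 112, 222, 347, 255 and 515. Those most like Tcf7 were 5033406O09Rik, a long noncoding RNA (0.966), the urea transporter Slc14a2 (0.948) and Gm5617 (0.929). These r values describe likeness across 10 means of 2 libraries among 11599 genes, with shared times and libraries.

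Among other secreted Wnt inhibitors and their receptors, 13 genes were listed and 5 passed the filter. At DMSO 7 d against 24 h 2 rose and 1 fell, with a median log2 change of 0.35 beside 0.06 over all genes, of which 32.0% rose and 28.0% fell. Sfrp5, a relative of Sfrp1, rose from 4.25 ± 0.0707 to 24.0 ± 0.495 normalized reads in DMSO (SD, n = 2, limma adjusted p = 0.00458). In JNKi it rose from 3.35 ± 4.74 to 58.2 ± 7.78 (limma adjusted p = 1.72e-05). JNKi minus DMSO at 7 d for Sfrp5 was 1.24 (SE 0.61, limma adjusted p = 0.204), and edgeR (adjusted p = 0.0238) and DESeq2 (adjusted p = 0.0349) called it, as did limma without either JNKi 24 h library (adjusted p = 0.0296 and 0.0266). Kremen1, a receptor for Dickkopf proteins, rose from 660 ± 11.3 to 1365 ± 33.2 in DMSO and from 700.3 ± 52.8 to 957 ± 0.636 in JNKi. It was lower in JNKi than in DMSO at 7 d by a log2 difference of -0.51 (limma adjusted p = 0.00181). Averaged over the 5 times, Kremen1 was lower in JNKi too (-0.15, limma adjusted p = 0.04), where 2.32% of all genes tested were. Apcdd1, a membrane-bound Wnt inhibitor, fell by 0.91 in DMSO and by 1.77 in JNKi, and was lower in JNKi at 7 d (-0.79, limma adjusted p = 0.0117). That call was lost without DMSO 7 d replicate 2 or either JNKi 7 d library (adjusted p = 0.0615, 0.0555 and 0.0898).

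Of 19 Wnt ligands listed, 8 passed the filter. At DMSO 7 d against 24 h, 7 rose and 1 fell, with a median log2 change of 2.58. Over all genes tested 32.0% rose and 28.0% fell. At JNKi 7 d 5 ligands rose and 1 fell, with a median of 1.96, where 31.7% of all genes tested rose and 26.3% fell. Mean levels were 119 RPKM for Wnt7b, 50.1 for Wnt7a, 24.9 for Wnt9a and 7.7 for Wnt4, and 0.239 or lower for the rest. A ligand near the floor could pass the filter through a high 7 d mean alone, which builds a rise into its being tested. The part of such genes in these counts was not tested. Wnt7a rose from 612 ± 27.1 to 6276 ± 991 normalized reads in DMSO (log2 3.35, limma adjusted p = 4.96e-10), and Wnt9a from 402 ± 13.9 to 3938 ± 636 (3.28, limma adjusted p = 1.2e-09). Wnt7b, the most abundant ligand by RPKM, fell from 17630 ± 1898 to 10560 ± 359 (-0.74, limma adjusted p = 2.39e-05). None of the 8 passed between JNKi and DMSO at 7 d, where 4.84% of all genes tested passed as higher and 5.33% as lower. The split over all genes was 673 higher and 741 lower, and its balance moved with the scaling. It was 564 higher and 964 lower after TMM rescaling, and 771 higher and 658 lower after upper quartile rescaling. The Wnt9a difference, JNKi minus DMSO, was -0.51 (limma adjusted p = 0.0955), and it passed without either DMSO 96 h library (adjusted p = 0.0465 and 0.0467), with only the 2 groups (0.012), under DESeq2 (0.0486) and under edgeR with no filter (2.42e-05). Wnt7a also passed under edgeR with no filter (-0.33, adjusted p = 0.02).

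Of 18 receptors and co-receptors 13 passed the filter. At DMSO 7 d against 24 h, 4 rose and 3 fell, where 32.0% of all genes tested rose and 28.0% fell. In JNKi against DMSO at 7 d 0 receptors were higher and 5 lower, where 4.84% of all genes tested were higher and 5.33% lower. Averaged over the 5 times, 0 receptors were higher and 2 lower in JNKi, where 2.45% of all genes tested were higher and 2.32% lower. Lrp5 was among the lower (-0.17, limma adjusted p = 0.0415). Fzd7, a Frizzled receptor, rose from 778 ± 154 to 1559 ± 0.495 in DMSO (limma adjusted p = 8.67e-06) and by 0.90 in JNKi (limma adjusted p = 3.55e-05). Ror1, a receptor of the noncanonical branch, fell by 0.80 in DMSO (limma adjusted p = 0.0016), and in JNKi from 660 ± 13.3 to 232 ± 16.6 normalized reads (limma adjusted p = 6.13e-06). Ror1 was lower in JNKi at 7 d (-0.68, limma adjusted p = 0.0297), but not without DMSO 7 d replicate 1 (adjusted p = 0.242) or either JNKi 7 d library (adjusted p = 0.104 and 0.16). Ryk, an atypical Wnt receptor, was lower too (-0.26, limma adjusted p = 0.0434), but not when any library of DMSO 48 h, 96 h or 7 d or of JNKi 96 h or 7 d was left out (adjusted p = 0.0526 to 0.176). Lrp5 fell by 0.35 in DMSO (limma adjusted p = 0.00692), but did not pass without replicate 1 of DMSO 24 h (adjusted p = 0.107) or of DMSO 7 d (adjusted p = 0.0798).

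Of 6 genes listed for secretion and R-spondins 3 passed the filter. At DMSO 7 d against 24 h, 2 rose and 0 fell, where 32.0% of all genes tested rose and 28.0% fell. In JNKi against DMSO at 7 d 1 was higher and 2 were lower, where 4.84% of all genes tested were higher and 5.33% lower. Averaged over the 5 times, Porcn was lower in JNKi (-0.23, limma adjusted p = 0.0253), and 0 of the 3 were higher. At DMSO 7 d against 24 h, Porcn, which attaches the lipid to Wnt proteins, rose by 0.83 (limma adjusted p = 3.39e-05). Wls, which carries Wnt proteins to the surface, rose by 0.61 (limma adjusted p = 1.8e-05). Porcn and Wls were lower in JNKi than in DMSO at 7 d, by log2 differences of -0.58 (limma adjusted p = 0.00779) and -0.38 (limma adjusted p = 0.0107). Porcn lost the call without DMSO 7 d replicate 1 (adjusted p = 0.103) or either JNKi 7 d library (adjusted p = 0.0612 and 0.0518), and Wls without DMSO 7 d replicate 1 (adjusted p = 0.132) or JNKi 7 d replicate 1 (adjusted p = 0.0965). The higher gene was Rspo1, a secreted enhancer of Wnt signalling, which was named after its values were seen and passed the filter only through JNKi groups. It held 5.0 and 8.1 normalized reads at DMSO 7 d and 30.5 and 24.5 at JNKi 7 d (1.94, limma adjusted p = 0.0346; edgeR with no filter, adjusted p = 0.0152). The limma call was lost with a pseudocount of 0.5 (adjusted p = 0.0651) and without DMSO 7 d replicate 1 or either JNKi 7 d library (adjusted p = 0.224, 0.19 and 0.101).

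All 17 genes of the destruction complex and Dishevelled group passed the filter. At DMSO 7 d against 24 h, 7 rose and 1 fell, with a median of 0.20, where 32.0% of all genes tested rose and 28.0% fell. In JNKi against DMSO at 7 d 1 was higher and 1 lower, where 4.84% of all genes tested were higher and 5.33% lower. The lower gene was Csnk1e, a casein kinase (-0.31, limma adjusted p = 0.0317). It was not called by limma without the trend (adjusted p = 0.053) or with only the 2 groups (0.0693). The call was also lost in 4 of the 20 fits with 1 library left out, where the difference ranged from -0.36 to -0.25. At DMSO 7 d against 24 h, Dvl1, which relays the receptor signal, rose by 0.57 (limma adjusted p = 1.87e-05) and Csnk1e by 0.40 (limma adjusted p = 0.000844). Tnks2, a tankyrase that marks Axin for degradation, fell by 0.35 (limma adjusted p = 0.00372), but did not pass without DMSO 7 d replicate 2 (adjusted p = 0.0539). The mRNA of Ctnnb1, which encodes β-catenin, differed by -0.19 in DMSO (limma adjusted p = 0.0501) and fell by 0.25 in JNKi (limma adjusted p = 0.0145). The DMSO difference of Ctnnb1 passed in 8 of the 14 alternatives other than leaving out 1 library. Among these were TMM rescaling (-0.22, limma adjusted p = 0.0246), edgeR (adjusted p = 0.0298) and DESeq2 (adjusted p = 0.00418).

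Of 14 nuclear partners 12 passed the filter. At DMSO 7 d against 24 h, 1 rose and 5 fell, with a median of -0.16, where 32.0% of all genes tested rose and 28.0% fell. Tle2, a Groucho-type corepressor, fell from 170 ± 73.5 to 35.9 ± 0.849 normalized reads in DMSO (limma adjusted p = 2.74e-05). At 7 d Tle2 was higher in JNKi than in DMSO (1.07, limma adjusted p = 0.0397), the sole partner called there, where 4.84% of all genes tested were higher. That Tle2 difference did not pass with no filter (limma adjusted p = 0.0632), without the trend (limma adjusted p = 0.0732) or under edgeR (adjusted p = 0.0738). It was also lost in 6 of the 20 fits with 1 library left out, where it ranged from 0.99 to 1.16. Cby1, a β-catenin antagonist, fell by 0.68 at DMSO 7 d against 24 h (limma adjusted p = 0.000337). Ep300 (0.19, limma adjusted p = 0.0721) and Pygo2 (-0.15, limma adjusted p = 0.0988), both coactivators, did not pass, though Ep300 did without DMSO 7 d replicate 2 (adjusted p = 0.0238) or either JNKi 72 h library (adjusted p = 0.0482 and 0.0483).

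Of 19 further feedback and target genes 17 had a row and 12 passed the filter. At DMSO 7 d against 24 h, 6 rose and 1 fell, with a median of 0.60, where 32.0% of all genes tested rose and 28.0% fell. In JNKi 3 rose and 0 fell, with a median of 0.29, where 31.7% of all genes tested rose and 26.3% fell. Ephb2, an ephrin receptor, rose from 12.1 ± 2.83 to 39.5 ± 10.8 in DMSO (limma adjusted p = 0.00311) and from 12.0 ± 1.13 to 41.0 ± 12.5 in JNKi (limma adjusted p = 0.00268). Nrcam, a neuronal adhesion molecule, rose from 8.6 ± 6.22 to 27.1 ± 6.86 in DMSO (limma adjusted p = 0.0129), but did not pass without replicate 1 of DMSO 24 h (adjusted p = 0.178) or of DMSO 7 d (adjusted p = 0.0935). Jag1, a Notch ligand, rose by 0.65 in DMSO (limma adjusted p = 0.00315), but not without DMSO 7 d replicate 1 (adjusted p = 0.0857). Ccnd1, which encodes cyclin D1, fell by 0.67 in DMSO (limma adjusted p = 0.000421) and was higher in JNKi than in DMSO at 7 d (0.64, limma adjusted p = 0.00658). That Ccnd1 difference was lost without JNKi 7 d replicate 1 (adjusted p = 0.0566). Znrf3, a ligase that removes Frizzled receptors, was named after its values were seen. In DMSO Znrf3 rose by 0.47 at 48 h (limma adjusted p = 0.0287), 0.81 at 72 h (limma adjusted p = 0.000428) and 0.56 at 7 d (limma adjusted p = 0.00448). Its DMSO means were 436 ± 54.2 normalized reads at 24 h, 733 ± 109 at 96 h and 642 ± 36.6 at 7 d. The JNKi means were 468 ± 0.212 at 24 h and 564 ± 25.7 at 7 d. Beside these 5 genes, whose largest log2 change at DMSO 7 d was 1.70 (Nrcam), Axin2 stood at 2.95; differences between genes were not tested.

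**Figure D5:**
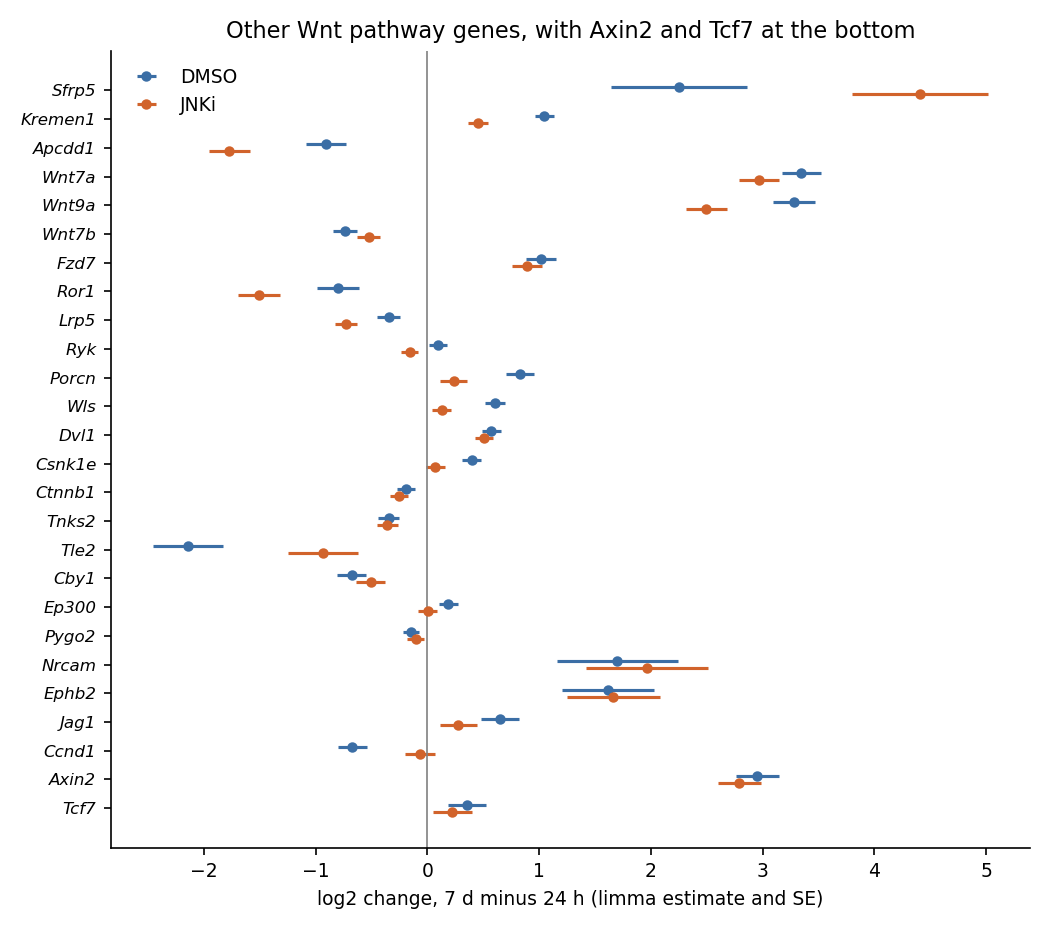
Log2 change from 24 h to 7 d in DMSO (blue) and JNKi (orange) of the 24 named pathway genes and, at the bottom, Axin2 and Tcf7 (dots, with limma's SE as bars). Axin2 stands near 2.95 and 2.79, beside Wnt7a and Wnt9a in DMSO at 3.35 and 3.28, and Tcf7 near 0.35 and 0.22.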

How the data were processed

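RNA sequencing of 35 NMuMG samples was deposited, and the 20 DMSO and JNKi libraries were used; groups and replicate numbers came from the titles. Per the submitters' processing notes, TopHat, HTSeq, DESeq and the build mm9 were used, with no versions. For 20261 genes, the deposited table gives a signal to 1 decimal: reads normalized per library. Values were whole multiples of 1 step per library, so reads were recovered (at least 99.9% of values within 0.1 of a whole number) and gave depths of 9.5 to 48.6 M reads. No table column lacked a sample. In the time course file, values were split at the decimal point, so its 15 samples were not analysed here.

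The 10 genes, the 7 pathway lists (106 genes) and the tests were chosen with earlier results of these data known. The lists came from general knowledge, and Trabd2b and Amer1 were matched through older symbols. The log2 of value plus 1 was modelled in R 4.3.3 by limma 3.58.1, using its intensity trend, 1 mean per group and 20 libraries together, over the 13896 genes that reached a mean of 10 in some group. Two-sided tests were adjusted by Benjamini-Hochberg over all genes, with 0.05 as threshold. Fold changes on this scale understate changes of low genes. From each list, the 2 largest changes past the test in DMSO 7 d against 24 h and the 2 highest means were named, and for each expressed member the 3 genes most like it. The comparison of 96 h with 72 h was added after seeing the data. The scripts were tested on simulated data. RPKM used GENCODE M21 exonic lengths and all recovered reads.

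The alternatives were pseudocounts (0.5, 8), other filters (none, or a mean of 50 in some group), rescaling (TMM, upper quartile), no trend, robust variances, replicate blocks, only the groups compared, a required log2 change of 1, leaving out each library, and edgeR 4.0.16 and DESeq2 1.42.0 on recovered reads. edgeR with no filter was added later. Protein sequences were not used here.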

Additional observations from a re-analysis of the deposited data

How the results depend on the processing

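Calls were counted among the members tested in each fit, which were 4 in the main fit. With no filter all 10 members were tested, and with a required group mean of 50 only Axin2 and Tcf7. For DMSO times against 24 h the main fit gave 5 calls, and alternatives other than leaving out 1 library gave 4 to 7. For JNKi times against 24 h there were 9, and 16 with no filter, 4 when a group mean of 50 was required, 5 under DESeq2, and 5 (without JNKi 24 h replicate 1) to 11 (without JNKi 7 d replicate 2) with 1 library left out. For 7 d against 96 h there were 6, and 3 after TMM rescaling, with a log2 change of at least 1, under DESeq2, and without DMSO 96 h replicate 2, DMSO 7 d replicate 2 or JNKi 7 d replicate 1. JNKi against DMSO at single times gave 0, and 1 with no filter (Lef1 at 7 d); its mean and both interactions gave 0 under every alternative run. The construction of the filters (more or fewer genes tested) sets part of this, and other causes were not tested. Against 24 h, 14.7% to 32.7% of all genes tested passed as higher at each DMSO time and 10.9% to 31.7% at each JNKi time. As lower, 11.2% and 19.1% passed at JNKi 48 h and 72 h. For 7 d over 96 h, 21.0% passed as higher in DMSO and 23.2% in JNKi. No called result changed sign. Differences that were not called did so with 1 library left out, such as Tcf7 in JNKi minus DMSO at 7 d (-0.30 to 0.25) and Axin2 at 96 h (-0.27 to 0.21).

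Replicate numbers did not pair the libraries at every time. Replicate differences of the 2 arms correlated at 0.726, 0.591, 0.723 and 0.527 from 24 h to 96 h but at 0.0724 at 7 d (9605 genes). The shares of all genes called between the arms from 24 h to 96 h came from fits without a replicate block. Shares with a block are not given here for those times. With the replicate block within each time, the JNKi contrasts called 0 members, as without it, while calls over all genes at 7 d went from 1414 to 3522 (1701 with the block over all times). The block within each time also called JNKi against DMSO at 7 d for Wnt9a (adjusted p = 0.0062), Wnt7a (0.0416), Lrp5 (0.00823) and Jag1 (0.0476). Depth limits the 8 near-silent genes, whose groups often rest on 0 to 16 reads.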
